A study of Homo sapiens with 2 samples.

Results

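The miR-26 family was followed by small RNA sequencing of A549 cells, an established human line from a lung adenocarcinoma, grown in DMEM with serum. Cells were kept for 24 h in normoxia (20% oxygen) or hypoxia (1.2% oxygen), and 1 library was sequenced per condition. The members were taken by name from the deposited count table and are hsa-miR-26a-5p, hsa-miR-26b-5p, hsa-miR-26a-1-3p, hsa-miR-26a-2-3p and hsa-miR-26b-3p (written without the species prefix from here on), which makes 5 of the 859 mature miRNAs listed there. All 5 names were listed. The table held 6449337 counts in normoxia and 13115226 in hypoxia, of which 4514818 and 8600160 fell on mature miRNAs. Levels are given as counts per 1000000 mature miRNA counts (CPM), with exact Clopper-Pearson 95% intervals. Both libraries come from the same cell line, and with 1 library per condition a difference has no replicate check, so no p-value is given and every interval covers counting error only. Reads amplified by PCR without molecular identifiers are not independent molecules, which these intervals do not include.

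Mature miRNAs are cut in pairs from a folded hairpin, the 5p arm from its left side and the 3p arm from its right side, and usually one arm, the guide, is loaded into Argonaute while the other, the passenger, is degraded. In the miR-26 family the guide is the 5p arm, and its seed, the short stretch near the 5′-end that pairs with target mRNAs, is shared by miR-26a and miR-26b. The family is best known as a brake on cell growth in epithelial and liver tumours, with the histone methyltransferase EZH2 and G1 cyclins among its targets. Its hairpins lie in introns of the CTDSP genes, whose products are small C-terminal domain phosphatases that keep RB in its active form. Host and miRNA are therefore often described as acting on the same step of the cell cycle.

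The mature sequences are shown because they decide which loci the counts can tell apart. They are RefSeq sequences (GRCh38.p14), matched by name for all 5 members, written 5′ to 3′ with the seed (bases 2 to 8) in capitals.
miR-26a-5p: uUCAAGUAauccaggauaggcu
miR-26b-5p: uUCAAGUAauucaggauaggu
miR-26a-1-3p: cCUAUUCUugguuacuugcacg
miR-26a-2-3p: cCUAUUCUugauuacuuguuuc
miR-26b-3p: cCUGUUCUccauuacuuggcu
Both 5p arms have the seed UCAAGUA. Counted from 1 at the 5′-end, miR-26b-5p differs from miR-26a-5p by C11U and C21U and is 1 base shorter, at 21 against 22 bases. The 3p arms of the miR-26a hairpins share the seed CUAUUCU, and miR-26a-1-3p differs from miR-26a-2-3p at 5 positions (A11G, U19C, U20A, U21C and C22G). miR-26b-3p has a seed of its own, which differs from that of miR-26a-2-3p by A4G. The table lists a window for each mature miRNA, in which the RefSeq sequence began 1 base in for 675 of the 687 miRNAs matched by name. Without the end bases of its window, miR-26b-3p is 22 bases long, 1 base longer than in RefSeq. In RefSeq the seed UCAAGUA is also carried by miR-1297 and miR-4465, neither of which is listed in the table. A feature needed at least 3 counts over both libraries to be listed.

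The hairpins, from RefSeq with both mature arms in capitals, show why the guide of miR-26a cannot be assigned to a locus.
MIR26A1: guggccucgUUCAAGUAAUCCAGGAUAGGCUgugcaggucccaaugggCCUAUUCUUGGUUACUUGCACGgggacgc
MIR26A2: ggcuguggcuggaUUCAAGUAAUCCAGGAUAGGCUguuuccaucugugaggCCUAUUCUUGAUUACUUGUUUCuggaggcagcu
MIR26B: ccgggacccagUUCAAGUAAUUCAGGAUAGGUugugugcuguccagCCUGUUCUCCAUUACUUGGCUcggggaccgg
MIR26A1 and MIR26A2 carry the same 5p arm, which the table lists once, at the MIR26A1 position (hg19 chr3:38010903-38010926). Its 19911 counts in normoxia and 47686 in hypoxia therefore cannot be assigned to either locus, and how reads that match both were counted is not known. The 3p arms differ between the loci and are listed apart, miR-26a-1-3p at chr3:38010942-38010965 and miR-26a-2-3p at chr12:58218402-58218425 in hg19. The MIR26B arms are listed at chr2:219267379-219267401 (5p) and chr2:219267414-219267437 (3p) in the same build.

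In GRCh38, GENCODE version 29 places each hairpin in an intron of a protein-coding CTDSP gene, on the strand of that gene. MIR26A1 (chr3:37969404-37969480, plus strand) lies in CTDSPL, within intron 5 of 7 of the transcript CTDSPL-201, and 107444 bases downstream of the annotated gene start. MIR26A2 (chr12:57824609-57824692, minus strand) lies in intron 5 of 7 of CTDSP2-201, and 22047 bases from the start of CTDSP2. MIR26B (chr2:218402646-218402722, plus strand) lies in intron 4 of 6 of CTDSP1-201, an intron of only 629 bases, and 4390 bases from the gene start. The hairpin was intronic in 3 of 3 coding transcripts of CTDSPL that span it, 5 of 5 of CTDSP2 and 4 of 4 of CTDSP1. The host mRNAs were not measured in these small RNA libraries.

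miR-26a-5p made up most of the family in both libraries. It reached 4410.1 CPM in normoxia (95% interval 4349 to 4472) and 5545 CPM in hypoxia (5495 to 5595). These levels placed it 16th and 17th among the 859 mature miRNAs. In normoxia it stood between miR-181a-5p (4766 CPM, 4703 to 4830.0) and miR-29c-3p (4193 CPM, 4134 to 4253), and in hypoxia between let-7f-5p (5858 CPM, 5807 to 5909.6) and miR-106b-5p (5331 CPM, 5282 to 5379.8). The interval of miR-26a-5p overlapped none of these 4 neighbours, so its place was fixed with respect to counting error.

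miR-26b-5p, the guide from CTDSP1, was more than a factor of 10 below its paralogue. It had 1277 counts in normoxia, or 283 CPM (268 to 299), and 3356 counts in hypoxia, or 390.2 CPM (377 to 404). Its place among the mature miRNAs was 93rd in normoxia and 82nd in hypoxia. In normoxia its interval overlapped those of miR-342-3p (288 CPM, 273 to 304) and miR-224-3p (280.4 CPM, 265 to 296), and in hypoxia those of miR-423-3p (413 CPM, 399 to 427) and miR-454-3p (383 CPM, 370.2 to 396). As a ratio of counts, miR-26b-5p over miR-423-3p was 0.945 in hypoxia (0.901 to 0.991), which lies below 1, while the intervals of its ratios to the other 3 neighbours included 1, so their order was not resolved at this depth.

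The passenger arms were near the lower end of what the libraries resolve. miR-26a-2-3p, from the CTDSP2 intron, had 29 counts in normoxia (6.42 CPM, 4.30 to 9.22) and 65 in hypoxia (7.56 CPM, 5.83 to 9.63). miR-26b-3p had 26 counts (5.76 CPM, 3.76 to 8.44) and 76 (8.84 CPM, 6.96 to 11.1). Within each library the intervals of these passengers overlapped, although their guides differed by more than a factor of 10. miR-26a-1-3p, from the CTDSPL intron, had 0 counts in normoxia, which allows up to 0.664 CPM at 3 counts (exact upper limit 0.817 CPM), and 9 counts in hypoxia (1.05 CPM, 0.479 to 1.99).

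**Figure D1:**
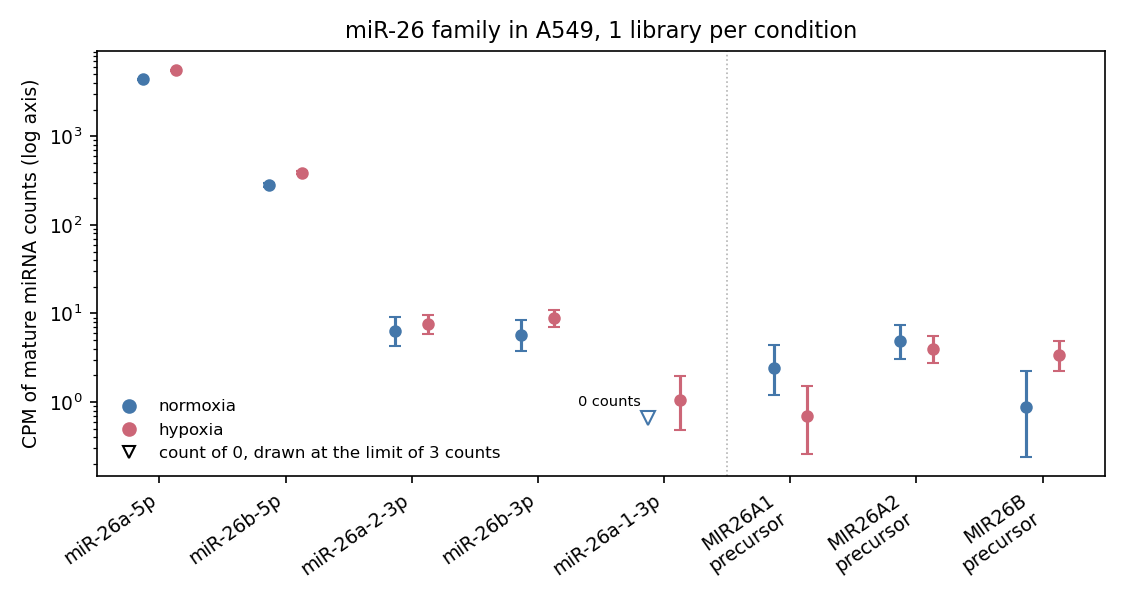
Level of each miR-26 member and of the 3 hairpin (precursor) features in CPM of mature miRNA counts (log axis), in 1 normoxia and 1 hypoxia library, with bars for exact 95% counting intervals. The guide miR-26a-5p stands at 4410.1 and 5545 CPM, miR-26b-5p at 283 and 390.2 CPM, and every passenger arm and precursor below 10 CPM, with the 0 count of miR-26a-1-3p in normoxia drawn as a triangle at its limit of 0.664 CPM.

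As a whole, the family took 21243 mature counts in normoxia and 51192 in hypoxia. This was 0.471% of mature miRNA counts in normoxia (0.464% to 0.477%) and 0.595% in hypoxia (0.590% to 0.600%). miR-26a-5p alone gave 93.7% of the family's counts in normoxia and 93.2% in hypoxia. The 3p arms together gave 55 and 150 counts.

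Between the conditions, both guide arms were higher in hypoxia, by less than the fold used here as a threshold. The ratio of hypoxia over normoxia was 1.26 for miR-26a-5p, a log2 ratio of 0.33 (exact conditional binomial 95% interval 0.31 to 0.35). For miR-26b-5p it was 1.38, a log2 ratio of 0.46 (0.37 to 0.56). A miRNA was counted as past the fold when its mean CPM over both libraries was above 8 and its log2 ratio was 0.9 or more, or -0.9 or less. Of the 5 members, 2 had a mean CPM above 8, the guide arms, and neither was past the fold. Among all 338 mature miRNAs above that level, 24 were past the fold (7.1%), of which 13 were higher (3.85%) and 11 lower (3.25%) in hypoxia.

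The guide arms sat in the upper part of a spread that was itself wide. The log2 ratios of the 338 miRNAs had a median of 0.08, an SD of 0.52 and quartiles at -0.22 and 0.39. miR-26a-5p was above 70.4% of them and miR-26b-5p above 82.0%, which left 99 and 60 miRNAs with a larger log2 ratio. Their distances from the median, 0.25 and 0.39, were smaller than the SD across miRNAs. For comparison, miR-210, the miRNA most widely used as a marker of hypoxia, went from 954 to 2657 CPM, a log2 ratio of 1.48 (1.43 to 1.52).

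**Figure D2:**
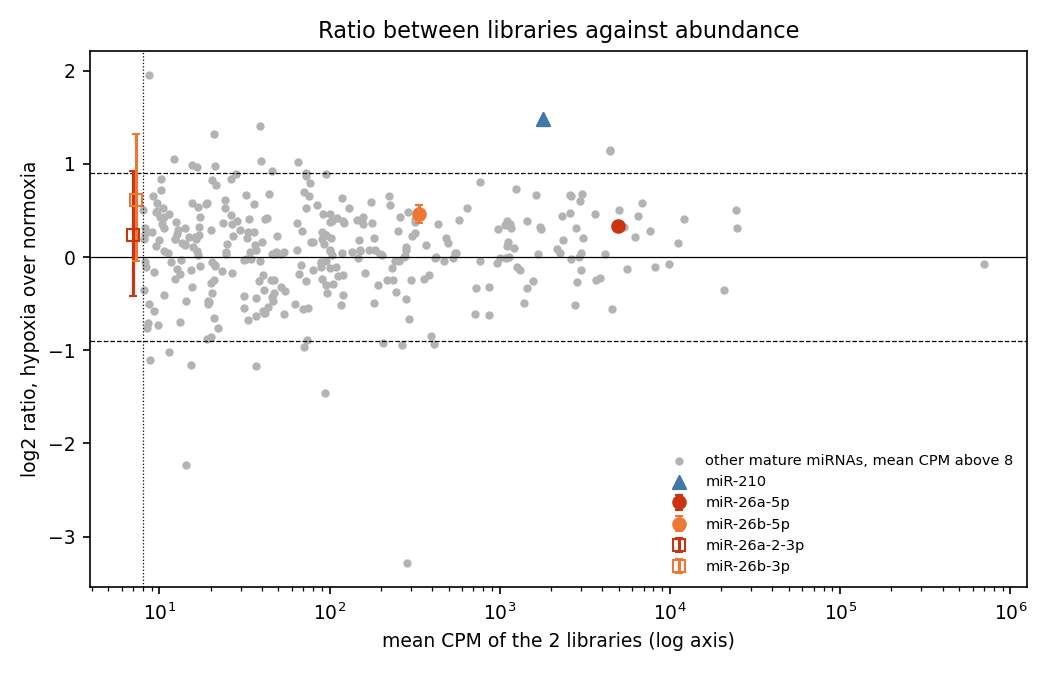
Log2 ratio of hypoxia over normoxia against mean CPM (log axis) for mature miRNAs with a mean CPM above 8 (dotted line), with dashed lines at 0.9 and -0.9 and bars for 95% counting intervals. miR-26a-5p (0.33) and miR-26b-5p (0.46) lie above the median of 0.08 and inside the dashed lines, miR-210 lies at 1.48, and the open squares show miR-26a-2-3p and miR-26b-3p, which lie just below a mean of 8 CPM.

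The passenger arms with counts in both libraries had ratios in the same direction, but their intervals reached below 0. For miR-26a-2-3p the log2 ratio was 0.23 (-0.42 to 0.92), and for miR-26b-3p it was 0.62 (-0.04 to 1.32). miR-26a-1-3p was at least 1.57-fold higher in hypoxia with its 9 counts taken as observed and the 0 in normoxia set to its limit of 3 counts. The counting error of the 9 counts reaches down to 0.479 CPM, below the 0.664 CPM of that limit. The exact interval for 0 against 9 counts, which does not use the 3 counts, has a lower log2 limit of 0.05 on mature totals. This lower limit falls below 0 under the other 4 scalings (-0.14 to -0.02). The mean CPM of miR-26a-1-3p was 0.523, those of the other passengers were 6.99 and 7.30, and no change is read from any of the 3.

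The direction of the guide arms held under the 5 scalings tried, while the size changed. Scaling by trimmed means (TMM) shifted the median of the 338 miRNAs by -0.11 and gave 0.22 for miR-26a-5p and 0.35 for miR-26b-5p. Leaving the 10 miRNAs with the most counts in each library out of the totals shifted it by -0.20, and gave 0.13 (0.11 to 0.16) and 0.27 (0.18 to 0.36). Relative to the median, the guides stayed 0.25 and 0.39 above it under each of the 5 scalings, as a change of scale moves every miRNA alike. The split of the miRNAs past the fold moved more, from 54.2% higher in hypoxia on mature totals to 37.5% under TMM and under totals of all features, 42.3% with DESeq2 size factors and 24.0% without the most abundant miRNAs. Neither guide was past the fold under any of these scalings.

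**Figure D3:**
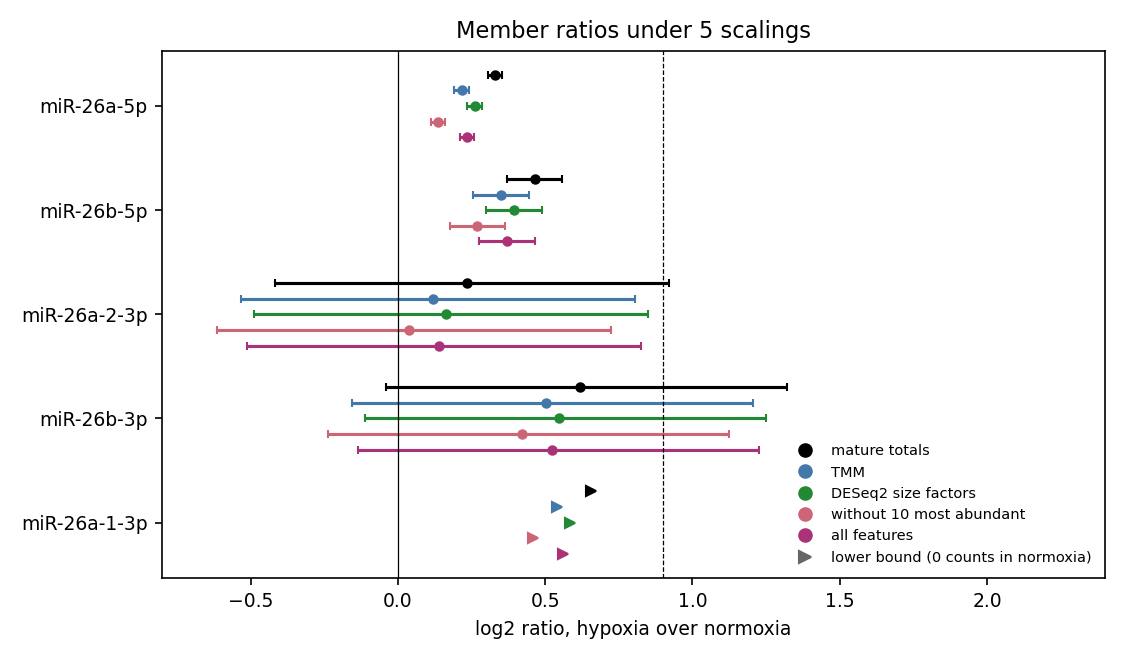
Log2 ratio of hypoxia over normoxia for the 5 members under 5 scalings, with bars for 95% counting intervals, a dashed line at 0.9 and arrowheads for the lower bounds of miR-26a-1-3p. The guide arms lie right of 0 under each scaling, from 0.13 to 0.33 for miR-26a-5p and from 0.27 to 0.46 for miR-26b-5p, and the intervals of miR-26a-2-3p and miR-26b-3p extend left of 0.

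Ratios taken within a library do not depend on the scale. There were 15.6 counts of miR-26a-5p per count of miR-26b-5p in normoxia (14.7 to 16.5) and 14.2 in hypoxia (13.7 to 14.7). The change of this ratio was -0.13 on the log2 scale (-0.23 to -0.04), so that miR-26b-5p gained slightly on miR-26a-5p beyond counting error. It was small beside the SD of 0.52 between miRNAs. The guides differ at only 2 positions, and how reads with a mismatch were assigned is not known, so their counts are uncertain as separate measurements. Ligation favours some sequences over others and its part in the level of this ratio was not tested.

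The arms were separated more strongly for miR-26a than for miR-26b. For miR-26a, with both 3p arms summed, there were 687 counts of guide per count of passenger in normoxia (478 to 1025) and 644 in hypoxia (513 to 821). For miR-26b there were 49.1 (33.4 to 75.5) and 44.2 (35.2 to 56.2). The intervals of the paralogues did not overlap in either library. Between the conditions the arm ratio changed by -0.09 on the log2 scale for miR-26a (-0.76 to 0.55) and by -0.15 for miR-26b (-0.86 to 0.51), so a change of up to these bounds could not be detected at this depth.

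Other hairpins give the scale for these values. With arms that are listed by locus summed for every miRNA, as for miR-26a, 214 miRNAs had both arms listed. Of these, 109 had a major arm with at least 1000 counts over both libraries, and their median ratio of major over minor arm was 34.4, with quartiles at 6.47 and 192. miR-26a, at 656 over both libraries, was 12th in this order. miR-26b, at 45.4, was 52nd and close to the median. The major arm was the 5p arm in 69 of the 109.

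**Figure D4:**
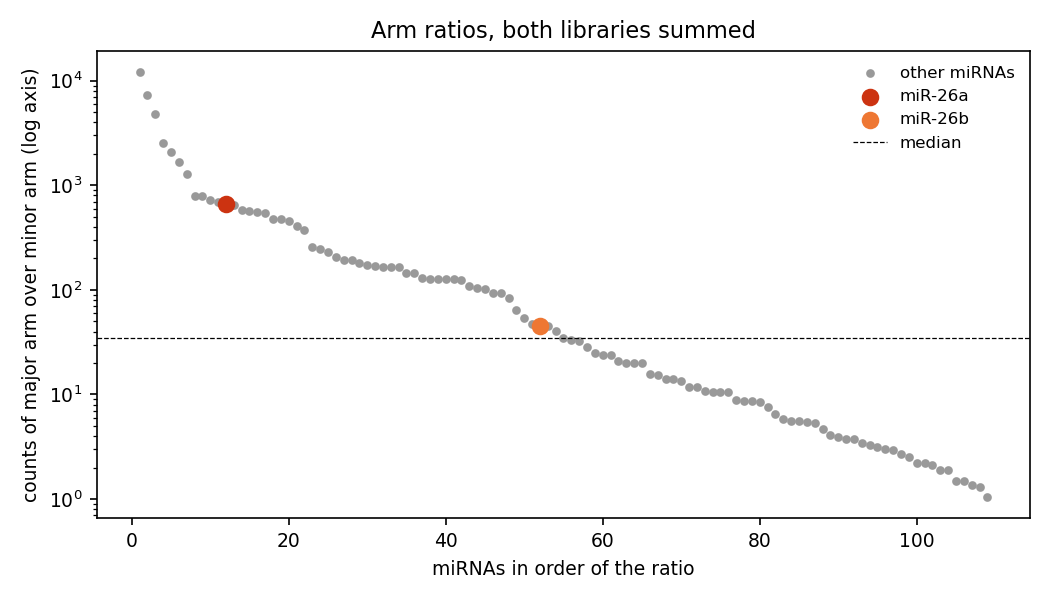
Counts of the major arm over the minor arm (log axis), both libraries and all loci of a miRNA summed, for 109 miRNAs with both arms listed and at least 1000 counts on the major arm, in descending order. miR-26a (656) is 12th and miR-26b (45.4) is 52nd, near the dashed median of 34.4.

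The 3p arms are the members that separate the MIR26A1 and MIR26A2 loci. In normoxia 0 of 29 miR-26a passenger counts came from MIR26A1, which allows a share of up to 10.3% at 3 counts (exact upper limit 11.9%), and in hypoxia 9 of 74, or 12.2% (5.71% to 21.8%). Over both libraries miR-26a-2-3p, from the CTDSP2 intron, made up 94 of 103 counts, and miR-26a-1-3p 8.74% (4.07% to 15.9%). The limits of the libraries overlap, and the difference in this share was not tested. Whether the passenger arms are equally stable was not tested, so these shares do not give the loci's shares of miR-26a-5p.

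Besides the mature arms, the table lists the 3 hairpins themselves as features of the Ensembl annotation. Their counts lie far below those of the guides, so they do not include most of the mature reads. MIR26A2 had 22 counts in normoxia and 34 in hypoxia (4.87 and 3.95 CPM), a log2 ratio of -0.30 (-1.12 to 0.54). MIR26A1 had 11 and 6 counts (2.44 and 0.698 CPM), with a log2 ratio of -1.80 (-3.52 to -0.24). MIR26B had 4 and 29 counts (0.886 and 3.37 CPM), with a log2 ratio of 1.93 (0.42 to 3.90). The hairpin features thus went in different directions, and their sum was level, at 37 counts (8.20 CPM) in normoxia and 69 (8.02 CPM) in hypoxia. The 229 hairpin features with at least 10 counts over both libraries had a median of 30 counts. Of these features, 79 lay at 0.9 or beyond on either side (34.5%), and 2 of the 3 miR-26 hairpins were among the 79. How many reached the size of -1.80 or 1.93 was not counted.

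The miRNAs nearest to the guide arms in both libraries were found by distance between log2 CPM values over the 2 libraries. Nearest to miR-26a-5p were let-7f-5p (4119 and 5858 CPM, distance 0.127), miR-181a-5p (4766 and 5942 CPM, distance 0.150) and miR-106b-5p (5818 and 5331 CPM, distance 0.404). Their log2 ratios were 0.51, 0.32 and -0.13, and a small distance by itself keeps the ratio of a neighbour near that of the guide. Nearest to miR-26b-5p were miR-151b (275 and 364 CPM, distance 0.108), miR-452-3p (277 and 361 CPM, distance 0.118) and miR-342-3p (288 and 344 CPM, distance 0.183), with log2 ratios of 0.41, 0.38 and 0.26.

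miR-26 belongs to a set of miRNAs that early work described as induced by low oxygen in cancer cells, together with miR-23, miR-24, miR-27, miR-103/107, miR-181 and miR-210. The list held 14 mature miRNAs here, all with a mean CPM above 8, and 1 of them, miR-210, was past the fold (background 3.85% for higher). The median log2 ratio of the list was 0.28, against 0.08 over all 338 miRNAs. Without the miR-26 guides, 6 of the other 12 were above 0 and 6 below, with a median of 0.08. The list takes 1 arm of most of these miRNAs. The list leaves out 9 other arms and members with a mean CPM above 8. Of these, 7 had a log2 ratio above 0, against 201 of all 338 miRNAs (59.5%). Past the fold was 1 of the 9, miR-23b-5p (21.3 and 56.5 CPM, 1.41), against 24 of the 338 (7.1%). The split thus depends on the choice of arms. The members closest to miR-26a-5p in log2 ratio were the abundant miR-23b-3p (0.32, 21910.3 and 27306 CPM) and miR-181a-5p (0.32), and miR-23a-3p (0.46, 85.1 and 117 CPM) was closest to miR-26b-5p. miR-103a-3p, at 506 and 282 CPM, had the lowest log2 ratio of the list (-0.84, -0.93 to -0.76). Under the other 4 scalings it was past the fold, between -0.91 and -1.04. Of the 14, 1 was then higher (miR-210, 1.28 to 1.41) and 1 lower, against 6 to 11 higher and 15 to 19 lower of all 338.

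A list of other miRNAs, of which miR-103a-3p and miR-107 are also in the hypoxia list, that lie in introns of protein-coding genes set the guides beside their own kind. Of its 53 listed arms, 41 had a mean CPM above 8, with a median log2 ratio of 0.07 and a range from -0.84 to 0.93. miR-532-3p, from an intron of CLCN5, was past the fold (0.93, from 31.7 to 60.2 CPM), and no other of the 41 was, against 24 of all 338 miRNAs (7.1%). A log2 ratio above 0 was found for 21 of the 41, against 201 of the 338 (59.5%). The list is a selection that leaves out other intronic miRNAs, so these shares do not describe intronic miRNAs in general. The call of miR-532-3p was lost under the other 4 scalings (0.73 to 0.86). Under these scalings 6 to 11 of all 338 miRNAs were higher and 15 to 19 lower. The list then had 0 members higher, and miR-103a-3p was lower, joined by miR-335-5p (-0.96) without the 10 most abundant miRNAs. Among its abundant members, miR-93-5p, from MCM7, went from 937 to 1549.6 CPM (0.73) and miR-15b-5p, from SMC4, from 1614 to 1144 CPM (-0.50).

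miR-26a shares the target EZH2 with miR-101, miR-138 and let-7, and a further list held miR-101-3p, miR-138-5p and the let-7 guides a, b, c and e, with other let-7 guides left out. Of these 6, 0 were past the fold, against 24 of the 338 (7.1%), and their median log2 ratio was 0.04, against 0.08. Within the list the log2 ratios ran from -0.01 for let-7c (148 and 147 CPM) to 0.34 for let-7e-5p (941 and 1192 CPM). Among the let-7 guides left out, they ran from -0.62 for let-7g-5p (1042 and 677 CPM) to 0.51 for let-7f-5p. miR-101-3p was at 541 and 558 CPM and miR-138-5p at 1059 and 1184 CPM. miR-26a-5p was above the 6 listed guides in both libraries, with let-7a-5p nearest of them at 4115 and 4209 CPM, while let-7f-5p lay above miR-26a-5p in hypoxia.

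**Figure D5:**
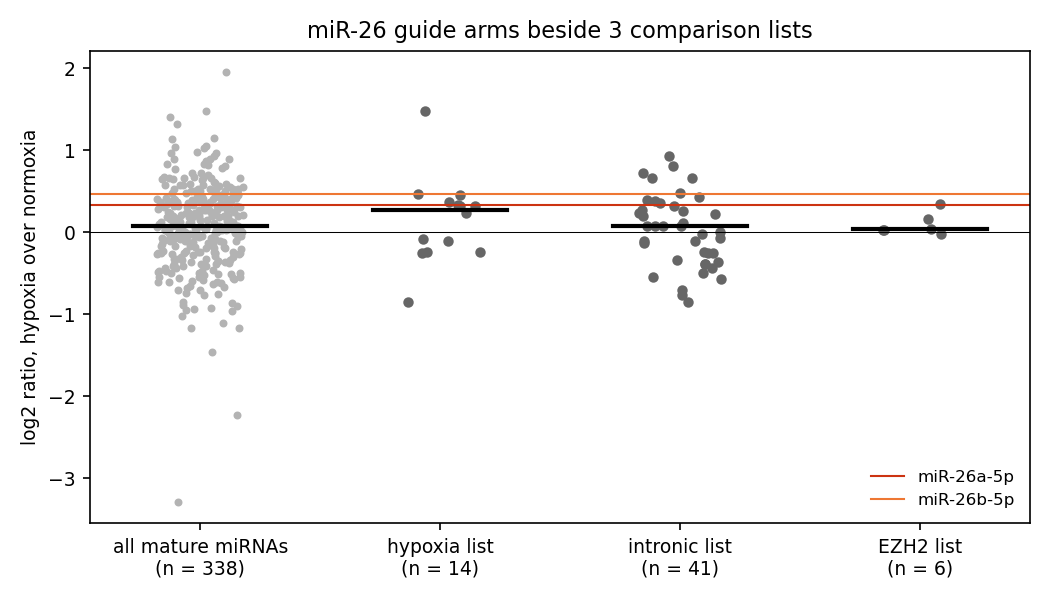
Log2 ratio of hypoxia over normoxia for mature miRNAs with a mean CPM above 8, all together (n = 338) and in 3 lists (n = 14, 41 and 6), with a black bar at each median and horizontal lines at miR-26a-5p (0.33) and miR-26b-5p (0.46). The medians are 0.08, 0.28, 0.07 and 0.04, and both lines lie above them and within the spread of all miRNAs.

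The labelled cell type was checked against marker miRNAs. All 6 epithelial markers were listed, led by miR-200b-3p at 879.8 and 1085 CPM, and miR-205-5p was the rarest of them at 2.66 and 1.74 CPM. Summed over the list they gave 1168 CPM in normoxia and 1362 in hypoxia, a difference that miR-200b-3p made up. Of the 5 with a mean CPM above 8, 3 had a log2 ratio above 0, and miR-141-3p had the lowest at -0.55 (37.2 and 25.5 CPM). Of the 5 blood cell markers 4 were listed, miR-223-3p was not, and their sum was 19.9 and 23.4 CPM, mostly miR-451a (18.2 and 22.2 CPM). The endothelial miR-126-3p was at 179 and 189.5 CPM, the neuronal miR-9-5p at 51.4 and 52.4 CPM, and the hepatic miR-122-5p at 0.886 and 0.465 CPM. Of the 3 muscle markers, miR-133a alone was listed, with 0 counts in normoxia and 18 in hypoxia (2.09 CPM). The 0 allows up to 0.664 CPM at 3 counts (exact upper limit 0.817 CPM). The part of other cells in the levels of miR-26 was not tested.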

How the data were processed

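Small RNA libraries of A549 cells were prepared by ligation for SOLiD sequencing, with PCR and without molecular identifiers. The authors deposited raw read counts for 5475 small RNA features in 2 libraries, without normalization. The build is hg19 per the submitters' processing notes. For SOLiD data in general the paper's methods name LifeScope version 2.5.1 and miRBase version 18. The sources used here do not say how reads with equal matches at several loci were counted.

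Counts were scaled to the 859 listed mature miRNAs. Log2 ratios carry no prior count, and intervals are exact binomial intervals at 95%. For the members a count of 0 was set to 3 counts. In the counts over all miRNAs or hairpin features, a 0 in 1 library gave an infinite ratio, which is beyond any threshold. With 1 library per condition no test of the condition was made, and edgeR's dispersion could not be estimated. A miRNA was past the fold at a mean CPM above 8 (log2 CPM above 3) and a log2 ratio of at least 0.9 in size. These thresholds follow the study's RNA sequencing, where they were set on mean log2 CPM and on lower genes, and are extended here to both directions and to the mean of CPM. The alternatives were TMM (edgeR version 4.0.16), DESeq2 version 1.42.0 size factors, totals that omit the 10 leading miRNAs of each library, totals of all features, 2 as a prior count, thinning of hypoxia to the depth of normoxia, other filters and a log2 threshold of 1. R version 4.3.3, Python version 3.11.15 and scipy version 1.17.1 were used. The calculation was tested on simulated counts with counting error only and planted changes larger than the fold threshold. That test does not cover variation between libraries or changes as small as those of the guides. The text names the members, miRNAs of the same seed, miR-210, the 3 miRNAs nearest to each guide, list members past the fold and the most abundant marker of each kind. The miRNAs next to each guide in rank, other list and marker members, miR-23b-5p and let-7 guides named with values, the lists under other scalings, and the limits of 1000 and 10 counts for arms and hairpin features, were chosen after values were seen. The members and lists were chosen with earlier results of these data known.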

Additional observations from a re-analysis of the deposited data

How the results depend on the processing

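The log2 ratio of miR-26a-5p moved from 0.33 to 0.22 under TMM, 0.26 with DESeq2 size factors, 0.13 without the 10 most abundant miRNAs and 0.24 with totals of all features, and that of miR-26b-5p from 0.46 to 0.35, 0.39, 0.27 and 0.37. The family's share of 0.471% in normoxia and 0.595% in hypoxia became 3.04% and 3.36% without the most abundant miRNAs and 0.329% and 0.390% with all features as the denominator, by construction. Without a filter on low counts 266 of 859 miRNAs were past the fold in place of 24 of 338, since rarer miRNAs were then considered. These include miRNAs with a 0 in 1 library, whose ratio was infinite. With a mean CPM of at least 20 or a log2 threshold of 1 there were 16 each, and with the deeper library thinned 29. The hypoxia list had 2 of 14 members past the fold, in place of 1, under TMM and with DESeq2 size factors. The same held without the most abundant miRNAs and with all features. The intronic list had 2 of 41, in place of 1, without the most abundant miRNAs. Of all 338 miRNAs, 24 were past the fold under TMM and with all features (7.1%). With DESeq2 size factors 26 were (7.7%), and without the most abundant miRNAs 25 (7.4%). These settings were applied to the lists after seeing the data. Of the 61 alternative values computed, 17 moved beyond the counting interval or 1.5 times the count. The log2 ratios of the 5 members kept their sign, while the median of the 338 miRNAs went from 0.08 to -0.04 under TMM, -0.12 without the most abundant miRNAs and -0.02 with all features. That of miR-26a-1-3p was 2.15 with 2 as a prior count, in place of 0.66 with the 0 set to 3 counts. This move is not among the 17, and the interval of miR-26a-1-3p has no upper limit.

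No paired analysis was possible because the design holds 1 library of either kind, and leaving out a library would empty a condition. Depth limits the 3p arms, for which no direction is read, and the hairpin features, which hold 4 to 34 counts per library. The levels of guides relative to each other carry the ligation and PCR bias of the libraries, which was not tested.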
